A study of Mus musculus with 14 samples.

Results

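Chromatin genes were compared in the spleens of AcB61, AcB55 and A/J mice. The genes encode histones, the chaperones that carry histones to DNA, high mobility group (HMG) proteins, and the enzymes and complexes that move nucleosomes or write, erase and read their chemical marks. They were matched by name, as symbols beginning with Hdac, Smarc, Kdm, Kmt, Cbx, Chd, Brd, Dnmt, Hmga, Hmgb, Hmgn, H1f, H3f, Ezh, Eed, Sin3, Asf1, Ing, Rbbp, Mta, Setd, Ehmt, Chaf and related stems, without Kdm5c, Kdm5d and Kdm6a. This naming rule was proposed with earlier results of these data known. The rule matched 86 gene symbols on the array, of which 84 had a value, among 6288 measured genes with a symbol of their own. Dnmt1 and Dnmt3b had no value. Of the histones themselves, the rule matched 2 measured genes, H3f3b and H1f8, so nearly all of what follows concerns regulators of chromatin. Histone genes with other names fall outside the rule, such as Cenpa, which is given with the related genes. All 84 genes passed the filter for testing, which asked for at least 3 values in each strain.

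AcB61 and AcB55 belong to a panel of recombinant congenic mice bred from A/J and C57BL/6, and each is inbred, with stretches of C57BL/6 chromosome in a largely A/J genome. The series is titled for malaria resistance, and its labels name no infection, treatment, age or sex, so the groups differ, as far as the labels go, by strain. Spleen RNA of AcB61 was hybridised on 8 arrays and spleen RNA of AcB55 on 6 arrays, and A/J spleen RNA was the other channel of every one of these cDNA arrays. Values are log2 ratios, likely of the strain over A/J, since channel 1 is labelled with the strain and channel 2 with A/J but no dye is given, and base 2 was taken because no base is stated. A gene passed the threshold when its mean differed from 0, or the strain means from each other, at a Benjamini-Hochberg adjusted p under 0.05 in limma. The labels do not say whether the arrays came from separate animals, so the p-values measure the spread between these arrays, which may be technical, and a test of the mean ratio against 0 takes no account of how A/J mice vary. Both strain comparisons rest on A/J spleen RNA, and their values are therefore given side by side.

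In a nucleus, DNA is wound around histones to form nucleosomes. Dividing cells need new histones and the chaperones that place them behind the replication fork, while HMG proteins bend DNA or loosen the packing of nucleosomes. Remodellers use ATP to slide or evict nucleosomes, and acetyl and methyl groups on histone tails, set and removed by opposing enzymes, mark genes as active or silent. The mouse spleen holds lymphocytes and macrophages and also makes red blood cells, whose precursors divide rapidly and condense their chromatin as they mature.

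Some arrays stood apart from others of their strain. Over all features, AcB61 replicates 2, 6 and 8 correlated with each other at r = 0.789 to 0.835 and replicates 3, 5 and 7 at r = 0.710 to 0.792, whereas between these sets r lay between -0.0832 and 0.156. Replicates 1 and 4 correlated with the other AcB61 arrays at r = 0.366 to 0.643. In AcB55, the mean log2 ratio of 3 measured granulocyte markers was 0.91 in replicate 1 and 1.12 in replicate 2, and between -0.07 and 0.10 in replicates 3 to 6. For calls that were lost without such a set, the adjusted p without it is given beside the call. Array medians lay between -0.021 and 0.0087, and 14197 to 14588 features had a value on each array.

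Among the 84 genes, 16 rose and 7 fell in AcB61 over A/J, and 61 did not pass (27.4% called in either direction). Over all 13045 features tested in AcB61, 23.8% were called, 10.5% higher and 13.3% lower. In AcB55 over A/J, 14 rose and 14 fell, and 56 did not pass (33.3%), where 20.7% of all features were called, 9.77% higher and 10.9% lower. The median log2 ratio of the genes was 0.014 in AcB61 and 0.012 in AcB55, against -0.00067 and -0.0019 over all features. Among all 6286 tested genes with a symbol of their own, 836 rose and 553 fell in AcB61 (22.1% called), and 705 rose and 976 fell in AcB55 (26.7%). Without AcB61 replicates 2, 6 and 8, 15 of the 84 genes rose and 7 fell in AcB61, and without replicates 3, 5 and 7, 14 rose and 7 fell. Without AcB61 replicate 8, 4 fell. Without AcB55 replicates 1 and 2, 8 rose and 8 fell in AcB55, and without AcB55 replicate 5 or 6, 9 fell. Changes were small: the mean passed 1.5-fold for 3 genes in AcB61 and 5 in AcB55. The median SD across arrays was 0.164 in AcB61 and 0.136 in AcB55 for these genes, against 0.168 and 0.147 over all features.

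**Figure D1:**
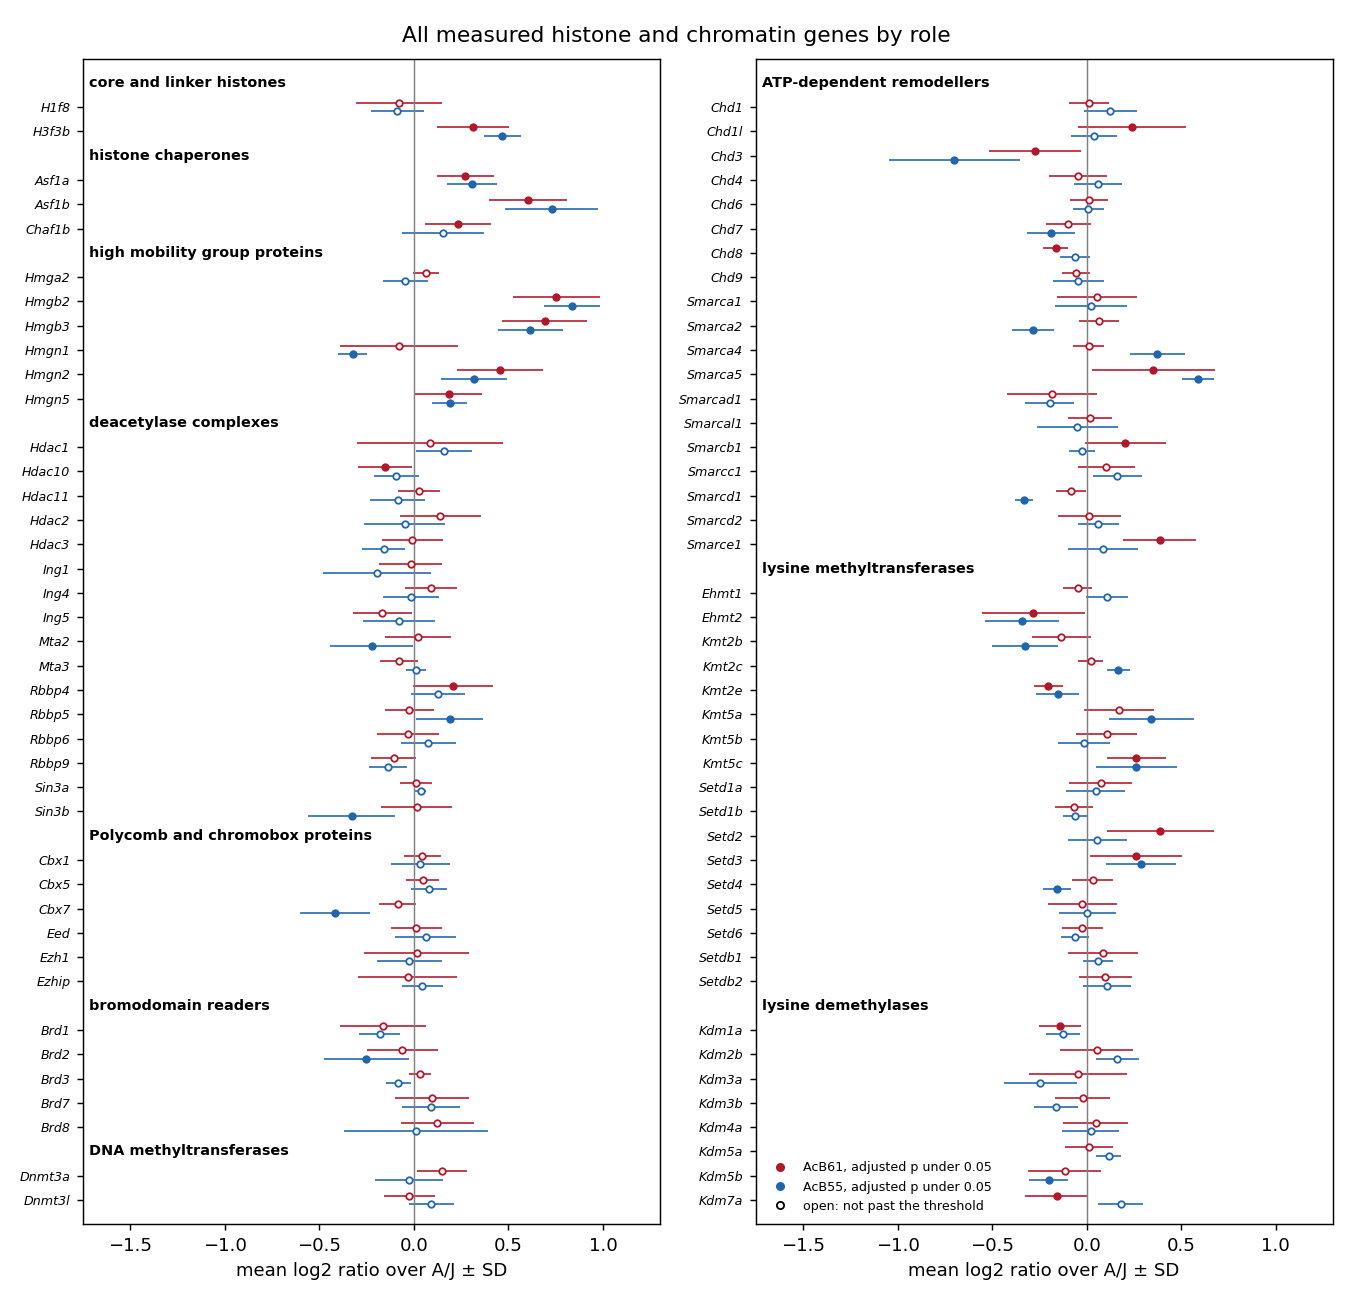
Mean log2 ratio over A/J (horizontal axis) of each of the 84 genes, ordered by role, in AcB61 (red, 8 arrays) and AcB55 (blue, 6 arrays). Bars are 1 SD over arrays and filled points passed an adjusted p of 0.05. Hmgb2, Hmgb3 and Asf1b lie furthest to the right in AcB61, and Chd3 furthest to the left in AcB55.

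The clearest increases were among histone chaperones, HMG proteins and the replacement histone H3f3b. All 3 chaperones under the naming rule rose in AcB61 and 2 of the 3 in AcB55, with medians of 0.27 and 0.31. Of the 6 HMG genes, 4 rose and 0 fell in AcB61, and 4 rose and 1 fell in AcB55, with medians of 0.32 and 0.25. In AcB61, 100% of these chaperones and 66.7% of the HMG genes were called, against 23.8% of all features. In AcB55 the shares were 66.7% and 83.3%, against 20.7%.

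Hmgb2 encodes an abundant DNA-bending protein of proliferating cells. Its log2 ratio ranged between 0.49 and 1.07 in AcB61 with a median of 0.70, and between 0.65 and 1.02 in AcB55 with a median of 0.83. Every array of both strains lay above 0 and the strains overlapped. The mean was 0.75 ± 0.23 in AcB61 (SD, n = 8, 1.68-fold, adjusted p = 9.2e-07) and 0.84 ± 0.15 in AcB55 (SD, n = 6, 1.78-fold, adjusted p = 9.67e-07). Hmgb3 encodes its relative of blood progenitor cells. Its values ran between 0.33 and 0.94 in AcB61 with a median of 0.66, and between 0.39 and 0.82 in AcB55 with a median of 0.62. Again no array was at or below 0, and the means were 0.69 ± 0.23 in AcB61 (1.61-fold, adjusted p = 2.66e-06) and 0.62 ± 0.17 in AcB55 (1.53-fold, adjusted p = 2.34e-05).

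Asf1b encodes the histone H3-H4 chaperone tied to cell division, and Asf1a its broadly expressed paralogue. Asf1b lay between 0.38 and 1.02 in AcB61 with a median of 0.55. It read 0.85, 1.10, 0.62, 0.49 and 0.58 in the 5 AcB55 arrays that measured it. All these values were above 0 and the strains overlapped, with means of 0.60 ± 0.21 in AcB61 (SD, n = 8, 1.52-fold, adjusted p = 1.9e-05) and 0.73 ± 0.25 in AcB55 (SD, n = 5, 1.66-fold, adjusted p = 2.45e-05). Asf1a had smaller values, between 0.04 and 0.49 in AcB61 (median 0.28) and between 0.11 and 0.47 in AcB55 (median 0.31). Its means of 0.27 ± 0.15 in AcB61 and 0.31 ± 0.13 in AcB55 passed the test, with adjusted p of 0.00119 and 0.00126. Tested apart, 1 of its 2 probes passed in each strain, and the other had adjusted p of 0.0580 in AcB61 and 0.167 in AcB55. Chaf1b, a subunit of the chaperone that deposits histones at replication forks, lay between 0.02 and 0.47 in AcB61 (median 0.19) and between -0.07 and 0.43 in AcB55 (median 0.08). It rose in AcB61, by 0.23 ± 0.17 (adjusted p = 0.0137), a call that was absent without AcB61 replicates 2, 6 and 8 (adjusted p = 0.252) and with array weights (adjusted p = 0.0604), and its AcB55 mean of 0.16 ± 0.22 did not pass (adjusted p = 0.166).

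H3f3b encodes the replacement histone H3.3, which enters nucleosomes outside replication. The mean of its 4 probes lay between 0.09 and 0.59 in AcB61 with a median of 0.27, and between 0.31 and 0.56 in AcB55 with a median of 0.50. All arrays were above 0, and each of the 4 probes passed the test in both strains. The means were 0.31 ± 0.19 in AcB61 (adjusted p = 0.000701) and 0.47 ± 0.10 in AcB55 (adjusted p = 5.65e-05). H3f3b and Hmgn2 have near-identical copies in the mouse genome whose cDNA may bind the same spots, so the identity of the RNA behind these values is uncertain. H1f8, the oocyte linker histone, averaged -0.08 ± 0.23 in AcB61 and -0.09 ± 0.14 in AcB55 and passed in neither.

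The HMGN proteins bind nucleosomes and loosen their packing. Hmgn2 lay between 0.03 and 0.66 on 7 AcB61 arrays (median 0.44) and between 0.14 and 0.58 on 6 AcB55 arrays (median 0.28). It rose by 0.45 ± 0.23 in AcB61 (adjusted p = 0.000274) and by 0.32 ± 0.18 in AcB55 (adjusted p = 0.00703), the AcB55 call being absent without AcB55 replicates 1 and 2 (adjusted p = 0.0982). Hmgn5 lay between 0.01 and 0.46 in AcB61 (median 0.15) and between 0.04 and 0.29 in AcB55 (median 0.22), above 0 throughout. Its means were 0.18 ± 0.18 in AcB61 (adjusted p = 0.0187) and 0.19 ± 0.09 in AcB55 (adjusted p = 0.0376). The Hmgn5 calls did not hold without AcB61 replicate 3 or 7 in AcB61 (adjusted p = 0.0582 and 0.0613), without replicates 3, 5 and 7 together (adjusted p = 0.362), or without any of AcB55 replicates 1, 2, 3, 4 or 6 in AcB55 (adjusted p = 0.0581 to 0.107). In AcB55 it was also lost without replicates 1 and 2 together (adjusted p = 0.199) and without replicates 3 and 4 together (adjusted p = 0.21). Tested apart, 1 of the 2 Hmgn5 probes rose in both strains (adjusted p = 0.0109 in AcB61 and 0.00109 in AcB55). The other passed in neither (adjusted p = 0.0629 in AcB61 and 0.519 in AcB55). Hmgn1 ran the other way in AcB55, where all 6 values lay between -0.41 and -0.20 (median -0.34) and the mean of -0.32 ± 0.08 fell (adjusted p = 0.0124), a call that missed the threshold without replicates 1 and 2 (adjusted p = 0.0594). On 7 AcB61 arrays Hmgn1 ran between -0.40 and 0.37 (median -0.09), with -0.40, -0.37 and -0.35 in replicates 2, 6 and 8 and 0.37, 0.07 and 0.22 in replicates 3, 5 and 7, and its mean of -0.08 ± 0.31 did not pass. Hmga2, of the embryonic HMGA family, averaged 0.06 ± 0.07 in AcB61 and -0.05 ± 0.12 in AcB55 and passed in neither.

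**Figure D2:**
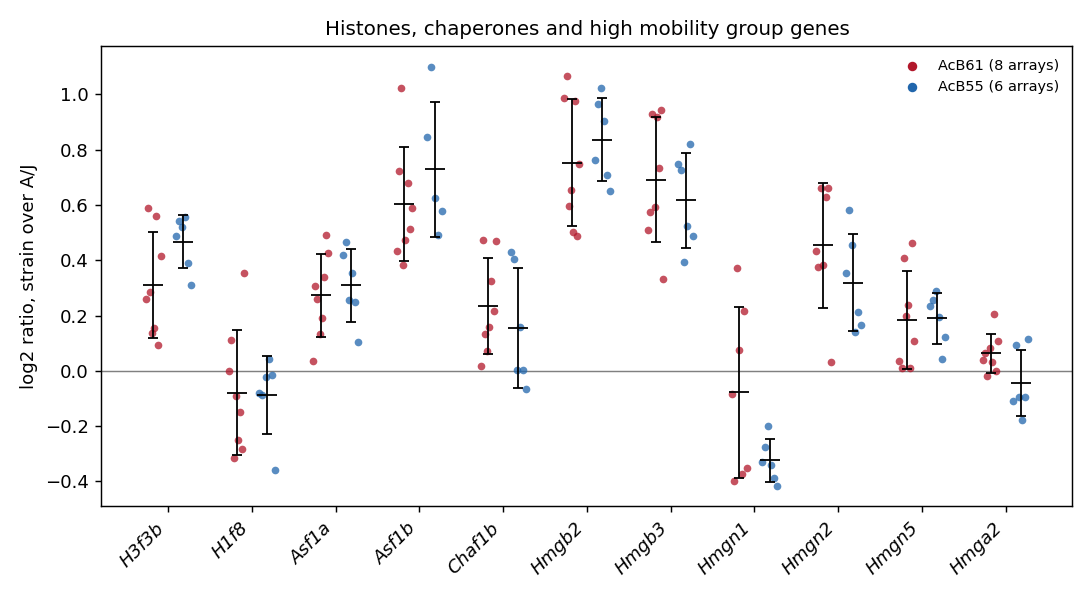
Log2 ratio over A/J (vertical axis) of the histone, chaperone and HMG genes on each array of AcB61 (red) and AcB55 (blue). Black bars are the mean and 1 SD. Hmgb2, Hmgb3 and Asf1b are above 0 on every array that measured them, with means between 0.60 and 0.84.

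Most measured markers of proliferation and of red cell precursors also rose over A/J in both strains. Of 23 measured genes of dividing cells out of 24 listed, such as Mki67 and Pcna, 21 rose and 0 fell in AcB61, and 19 rose and 0 fell in AcB55, with medians of 0.68 and 0.65. Their mean per array lay between 0.41 and 0.79 in AcB61 and between 0.53 and 0.86 in AcB55. Of 14 measured erythroid genes of 23 listed, 12 rose and 0 fell in AcB61, and 12 rose and 1 fell in AcB55, with medians of 0.73 and 0.64 and array means between 0.55 and 0.74 in AcB61 and between 0.41 and 0.79 in AcB55. Of the spleen's other cells the array measured few markers: Blnk, an adaptor of B cells, averaged -0.58 in AcB61 and -1.07 in AcB55, and among 4 macrophage markers 1 fell in AcB61 and 3 fell in AcB55. Of 3 granulocyte markers 1 rose and 1 fell in AcB61 and 0 passed in AcB55, and the T cell factor Satb1 averaged -0.03 in AcB61 and -0.18 in AcB55. Over all features, 23.8% were called in AcB61 and 20.7% in AcB55. A log ratio gives no level, so no marker can be called absent. In such bulk RNA, fewer cells of a type and less RNA per cell cannot be told apart, and the part of these cells in the chromatin gene results was not tested.

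Promoter windows of 7 genes, chosen after their values were seen, are shown because 6 of these genes rose in both comparisons. The windows run from 250 bases before to 50 bases after the start of the gene and come from RefSeq (GRCm38.p6), which held a window for 70 of the 84 genes. Searched on both strands were the CCAAT box (CCAAT, or ATTGG on the other strand) and the cell cycle homology region (TTTGAA, or TTCAAA), both described in promoters of cell cycle genes, and both are in capitals. The 22 matches in the windows printed here had 0 overlaps. Hmgb2 lies at chr8:57511593-57511892 on the plus strand, Hmgb3 at chrX:71555667-71555966 on the plus strand and Asf1b at chr8:83955444-83955743 on the plus strand. Hmgn2 lies at chr4:133967942-133968241 on the minus strand, H3f3b at chr11:116024455-116024754 on the minus strand and Smarca5 at chr8:80739410-80739709 on the minus strand. The seventh, Cbx7, which fell in AcB55, lies at chr15:79932597-79932896 on the minus strand and is shown for contrast.
Hmgb2: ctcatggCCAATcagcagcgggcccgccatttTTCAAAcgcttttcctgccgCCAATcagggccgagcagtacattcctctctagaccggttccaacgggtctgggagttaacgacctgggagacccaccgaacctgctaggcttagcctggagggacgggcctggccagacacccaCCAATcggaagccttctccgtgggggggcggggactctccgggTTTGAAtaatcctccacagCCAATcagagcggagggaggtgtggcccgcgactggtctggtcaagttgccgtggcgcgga
Hmgb3: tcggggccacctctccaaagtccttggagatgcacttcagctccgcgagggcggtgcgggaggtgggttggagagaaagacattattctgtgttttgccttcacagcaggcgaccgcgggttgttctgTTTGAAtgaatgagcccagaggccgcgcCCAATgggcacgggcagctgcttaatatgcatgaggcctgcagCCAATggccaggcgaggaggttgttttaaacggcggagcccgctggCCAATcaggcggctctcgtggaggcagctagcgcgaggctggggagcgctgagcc
Asf1b: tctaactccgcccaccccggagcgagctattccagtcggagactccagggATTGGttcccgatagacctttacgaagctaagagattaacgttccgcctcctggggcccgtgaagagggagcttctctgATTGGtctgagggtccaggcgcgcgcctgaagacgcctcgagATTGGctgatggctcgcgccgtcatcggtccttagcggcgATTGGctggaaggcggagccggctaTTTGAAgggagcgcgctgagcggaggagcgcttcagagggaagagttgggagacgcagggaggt
Hmgn2: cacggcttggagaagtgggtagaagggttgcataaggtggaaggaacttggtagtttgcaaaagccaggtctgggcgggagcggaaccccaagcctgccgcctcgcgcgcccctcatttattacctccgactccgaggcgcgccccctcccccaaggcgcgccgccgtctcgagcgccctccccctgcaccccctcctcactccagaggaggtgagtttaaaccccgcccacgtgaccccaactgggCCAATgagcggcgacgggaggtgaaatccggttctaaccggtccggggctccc
H3f3b: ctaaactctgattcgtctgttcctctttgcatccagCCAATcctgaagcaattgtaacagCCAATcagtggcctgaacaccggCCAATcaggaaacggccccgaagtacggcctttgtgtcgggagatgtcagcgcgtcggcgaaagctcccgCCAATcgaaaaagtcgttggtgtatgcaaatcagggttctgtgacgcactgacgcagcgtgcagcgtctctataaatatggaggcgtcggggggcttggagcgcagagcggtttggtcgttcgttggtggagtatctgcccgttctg
Smarca5: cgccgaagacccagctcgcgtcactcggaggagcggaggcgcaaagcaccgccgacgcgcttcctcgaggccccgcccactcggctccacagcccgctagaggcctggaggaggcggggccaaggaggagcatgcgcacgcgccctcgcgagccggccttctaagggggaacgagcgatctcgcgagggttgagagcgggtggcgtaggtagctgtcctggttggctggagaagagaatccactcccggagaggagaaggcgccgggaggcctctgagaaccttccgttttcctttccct
Cbx7: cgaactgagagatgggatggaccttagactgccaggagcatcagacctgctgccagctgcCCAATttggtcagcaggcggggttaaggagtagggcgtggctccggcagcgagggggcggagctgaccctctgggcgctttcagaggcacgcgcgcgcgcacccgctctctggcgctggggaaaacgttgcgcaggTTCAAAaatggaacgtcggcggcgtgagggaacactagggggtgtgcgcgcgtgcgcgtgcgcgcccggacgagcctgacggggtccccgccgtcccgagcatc

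The windows of Hmgb2, Hmgb3 and Asf1b hold several CCAAT boxes each and at least 1 cell cycle homology region. That of H3f3b holds 4 CCAAT boxes and that of Hmgn2 holds 1, and neither motif is in the Smarca5 window. Cbx7 holds both motifs as well, so the pair is not restricted to genes that rose. Across genes, a CCAAT box was in the window of 11 of 19 genes called higher in at least 1 strain (57.9%), 5 of 13 called lower in at least 1 strain (38.5%), 19 of 38 called in neither (50%) and 41.1% of all 27025 genes with a window. For the cell cycle homology region the shares were 15.8%, 15.4%, 13.2% and 20.2%. In the 10 genes called higher in both comparisons, which share A/J RNA, a CCAAT box was in 9 windows (90%), a cell cycle homology region in 3 (30%) and both in 3 (30%, against 8.97% of all genes), a description of genes picked by their calls. An E2F site (TTTGGCGC, TTTCCCGC, TTTCGCGC or TTTGCCGC, both strands) was in 3 of the 70 windows (4.29%, against 2.6% of all genes) and a GATA site (AGATAA, both strands) in 7 (10%, against 12.7%). A match describes letters only and no binding was measured.

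ATP-dependent remodellers were mixed. Of 19, 4 rose and 2 fell in AcB61 and 2 rose and 4 fell in AcB55, with medians of 0.014 and 0.0070. In each strain 31.6% were called, against 23.8% of all features in AcB61 and 20.7% in AcB55. Smarca5, the motor of the ISWI complexes, rose in both comparisons. It ran between 0.09 and 0.90 in AcB61 (median 0.20) and between 0.47 and 0.69 in AcB55 (median 0.60), with no value below 0. Its means were 0.35 ± 0.33 in AcB61 (adjusted p = 0.00396) and 0.59 ± 0.09 in AcB55 (1.50-fold, adjusted p = 0.000181). AcB61 replicates 3 and 7 read 0.90 and 0.81, and the other AcB61 arrays at most 0.39.

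Smarce1, a subunit of the SWI/SNF (BAF) complexes, lay between 0.19 and 0.69 in AcB61 (median 0.36) and between -0.15 and 0.31 in AcB55 (median 0.06). It rose in AcB61 by 0.39 ± 0.19 (adjusted p = 0.000316) and averaged 0.08 ± 0.18 in AcB55 (adjusted p = 0.499), and the difference between the strains was 0.30 (adjusted p = 0.0521). Smarca4 and Smarca2 encode the alternative ATPase motors of the same complexes. Smarca4 lay between -0.08 and 0.13 in AcB61 (median -0.03) and between 0.13 and 0.55 in AcB55 (median 0.37), and the 2 ranges did not overlap. Its mean was 0.01 ± 0.08 in AcB61 (adjusted p = 0.912) and 0.37 ± 0.14 in AcB55 (adjusted p = 7.16e-05). Smarca2 lay between -0.05 and 0.24 in AcB61 (median 0.06) and between -0.42 and -0.10 in AcB55 (median -0.27). Its mean was 0.07 ± 0.10 in AcB61 (adjusted p = 0.351) and -0.28 ± 0.11 in AcB55 (adjusted p = 0.000713). The subunit Smarcd1 fell in AcB55, with values between -0.41 and -0.27 (median -0.32) and a mean of -0.33 ± 0.05 (adjusted p = 3.66e-05), whereas AcB61 values lay between -0.22 and 0.02 (median -0.08) and averaged -0.09 ± 0.08 (adjusted p = 0.124).

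Of the chromodomain remodellers, Chd3, a motor of the NuRD deacetylase complex, fell most. It lay between -0.64 and 0.08 in AcB61 (median -0.27) and between -1.36 and -0.45 in AcB55 (median -0.58). The mean was -0.27 ± 0.24 in AcB61 (adjusted p = 0.0357) and -0.70 ± 0.34 in AcB55 (adjusted p = 0.000101). The AcB61 call was lost without any of replicates 1, 2, 3, 4, 6 or 8 (adjusted p = 0.0541 to 0.107) and without replicates 2, 6 and 8 together (adjusted p = 0.402). Chd8, a repressor of Wnt target genes, fell in AcB61 to a mean of -0.16 ± 0.07 (adjusted p = 0.00518), and missed the threshold without AcB61 replicates 3, 5 and 7 (adjusted p = 0.0726). It averaged -0.06 ± 0.08 in AcB55. Of the 3 Chd8 probes 1 fell in both strains, and the other two passed in neither. Chd1l, a remodeller in DNA repair, lay between -0.21 and 0.61 in AcB61 (median 0.30) and between -0.18 and 0.18 in AcB55 (median 0.06). It averaged 0.24 ± 0.29 in AcB61 (adjusted p = 0.0273) and 0.04 ± 0.12 in AcB55. Its call in AcB61 was lost without any of replicates 2, 4, 6 or 8 (adjusted p = 0.0695 to 0.0877), and without 2, 6 and 8 together the adjusted p was 0.474. Smarcb1, a core SWI/SNF subunit, averaged 0.20 ± 0.22 on 7 AcB61 arrays (adjusted p = 0.0242) and -0.02 ± 0.07 in AcB55, and its call was lost without replicate 3, 5 or 7 (adjusted p = 0.0681 to 0.0858) and without all 3 (adjusted p = 0.666). Chd7, mutated in human CHARGE syndrome, averaged -0.10 ± 0.12 in AcB61 (adjusted p = 0.167) and -0.19 ± 0.13 in AcB55 (adjusted p = 0.022), the call being lost without AcB55 replicate 1, 5 or 6 (adjusted p = 0.0598 to 0.09) and without replicates 1 and 2 together (adjusted p = 0.109). Its probes, tested apart, averaged -0.31 (adjusted p = 0.00529) and -0.06 (adjusted p = 0.573) in AcB55.

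The 16 deacetylase and corepressor genes were sorted by symbol alone. They include genes with other roles, such as Rbbp5 of the MLL methyltransferase complexes, the ubiquitin ligase Rbbp6 and the hydrolase Rbbp9. Of the 16, 1 rose and 1 fell in AcB61 and 1 rose and 2 fell in AcB55. The shares called were 12.5% in AcB61 (23.8% of all features) and 18.8% in AcB55 (20.7% of all features), and the medians were 0.0029 in AcB61 and -0.065 in AcB55. Sin3b, a scaffold that recruits deacetylases, lay between -0.24 and 0.22 in AcB61 (median 0.10) and between -0.73 and -0.04 in AcB55 (median -0.31). Its mean was 0.01 ± 0.19 in AcB61 (adjusted p = 0.918) and -0.33 ± 0.23 in AcB55 (adjusted p = 0.00561). AcB61 replicates 3, 5 and 7 read -0.22, -0.15 and -0.24, and the other AcB61 arrays 0.05 to 0.22. Mta2, a NuRD subunit, averaged 0.02 ± 0.17 in AcB61 and -0.22 ± 0.22 in AcB55 (adjusted p = 0.0434), and this call was lost without AcB55 replicate 3, 5 or 6 or AcB61 replicate 1 or 4 (adjusted p = 0.052 to 0.203), or without AcB55 replicates 3 and 4 together (adjusted p = 0.124). Rbbp4, a histone-binding subunit of several complexes, averaged 0.21 ± 0.21 in AcB61 (adjusted p = 0.0246) and 0.13 ± 0.14 in AcB55, and the AcB61 call was lost without replicate 3 or 7 (adjusted p = 0.0729 and 0.0792) and without 3, 5 and 7 together (adjusted p = 0.411). Neither Rbbp4 probe passed in AcB61 when tested apart (adjusted p = 0.134 and 0.0856). Rbbp5 averaged -0.02 ± 0.13 in AcB61 and 0.19 ± 0.18 in AcB55 (adjusted p = 0.0411), a call lost without any of AcB55 replicates 1, 2, 4, 5 or 6 or AcB61 replicate 4 (adjusted p = 0.0517 to 0.175), or without AcB55 replicates 1 and 2 together (adjusted p = 0.119). Of the 5 measured histone deacetylases Hdac10, which acts on polyamines, passed in AcB61 at -0.15 ± 0.14 (adjusted p = 0.0426), against -0.09 ± 0.12 in AcB55. That call was lost without AcB61 replicate 2, 5, 6, 7 or 8 or AcB55 replicate 3 (adjusted p = 0.0527 to 0.128), without replicates 2, 6 and 8 (adjusted p = 0.14) and without 3, 5 and 7 (adjusted p = 0.255). The catalytic genes Hdac1, Hdac2 and Hdac3 averaged 0.08, 0.14 and -0.01 in AcB61 and 0.16, -0.05 and -0.16 in AcB55, with none past the threshold.

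Among 17 lysine methyltransferase genes, sorted by symbol, 3 rose and 2 fell in AcB61 and 4 rose and 4 fell in AcB55, with medians of 0.032 and 0.048. The shares called were 29.4% in AcB61 (23.8% of all features) and 47.1% in AcB55 (20.7% of all features). Setd2, which methylates histone H3 over transcribed genes, ran between -0.06 and 0.76 in AcB61 (median 0.45) and between -0.10 and 0.26 in AcB55 (median 0.02). It rose in AcB61 by 0.39 ± 0.28 (adjusted p = 0.00132), while 0.06 ± 0.16 in AcB55 did not pass (adjusted p = 0.746), and the difference of 0.33 did not pass either (adjusted p = 0.0711). Kmt5a, the enzyme that monomethylates histone H4 and peaks in mitosis, lay between -0.03 and 0.47 in AcB61 (median 0.12) and between 0.14 and 0.72 in AcB55 (median 0.27). Its mean was 0.17 ± 0.19 in AcB61 (adjusted p = 0.0754) and 0.34 ± 0.22 in AcB55 (adjusted p = 0.00372), and the AcB55 call missed the threshold without replicates 1 and 2 (adjusted p = 0.0901). Kmt5c, which extends that mark in heterochromatin, lay between 0.07 and 0.48 in AcB61 (median 0.22) and between -0.06 and 0.55 in AcB55 (median 0.25), and averaged 0.26 ± 0.16 (adjusted p = 0.00524) and 0.26 ± 0.22 (adjusted p = 0.0139). The Kmt5c calls were lost in AcB61 without replicates 3, 5 and 7 (adjusted p = 0.127) and in AcB55 without replicate 1 or 4 (adjusted p = 0.0674 and 0.056) and without 1 and 2 together (adjusted p = 0.106). In AcB55 its probes, tested apart, had adjusted p of 0.00334 and 0.173. Setd3, a histidine methyltransferase of actin that carries a SET domain, lay between -0.06 and 0.69 in AcB61 (median 0.22) and between 0.01 and 0.55 in AcB55 (median 0.31). It averaged 0.26 ± 0.24 in AcB61 (adjusted p = 0.0128) and 0.29 ± 0.18 in AcB55 (adjusted p = 0.0189), lost without AcB61 replicates 3, 5 and 7 (adjusted p = 0.223) and without AcB55 replicate 1, 5 or 6 (adjusted p = 0.0526 to 0.0876) or 1 and 2 together (adjusted p = 0.115).

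Ehmt2, the G9a enzyme that methylates histone H3 to silence genes, lay between -0.73 and -0.02 in AcB61 (median -0.21) and between -0.56 and -0.05 in AcB55 (median -0.38). No array was above 0, and it fell to a mean of -0.28 ± 0.27 in AcB61 (adjusted p = 0.0129) and -0.34 ± 0.20 in AcB55 (adjusted p = 0.0106). AcB61 replicates 2 and 6 read -0.73 and -0.64, and without replicates 2, 6 and 8 the AcB61 call was lost (adjusted p = 0.27). Kmt2e, an MLL-family protein, fell in AcB61 (mean -0.20 ± 0.08, adjusted p = 0.00226) and in AcB55 (mean -0.15 ± 0.12, adjusted p = 0.0334). The AcB55 call for Kmt2e was lost without any of replicates 1, 2, 3, 5 or 6 (adjusted p = 0.0556 to 0.117) and without 1 and 2 together (adjusted p = 0.276). Of its 2 probes, 1 passed in each strain. Kmt2b, an MLL-family enzyme of active promoters, averaged -0.13 ± 0.16 in AcB61 and -0.32 ± 0.17 in AcB55 (adjusted p = 0.00175), where its values lay between -0.63 and -0.14. The remaining calls were in AcB55: Kmt2c, an enzyme of enhancers, at 0.17 ± 0.06 (adjusted p = 0.00962, and 0.0556 without AcB55 replicates 3 and 4), of whose 2 probes 1 passed, and Setd4 at -0.16 ± 0.07 (adjusted p = 0.0331), lost without AcB55 replicate 1, 3, 4 or 5 (adjusted p = 0.059 to 0.105), or 1 and 2 (adjusted p = 0.0749) or 3 and 4 together (adjusted p = 0.178).

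Lysine demethylases erase methyl marks. Of 8, 0 rose and 2 fell in AcB61 and 0 rose and 1 fell in AcB55, with medians of -0.035 and -0.052. The shares called were 25% in AcB61 (23.8% of all features) and 12.5% in AcB55 (20.7% of all features). Kdm7a lay between -0.37 and 0.09 in AcB61 (median -0.19) and between 0.04 and 0.30 in AcB55 (median 0.20), and averaged -0.16 ± 0.17 (adjusted p = 0.0406) and 0.18 ± 0.12 (adjusted p = 0.0516). It erases repressive methyl marks. Of its 3 probes, 2 fell in AcB61 and 1 rose in AcB55. The AcB61 call for Kdm7a was lost without any of replicates 1, 2, 4, 6 or 8 (adjusted p = 0.0762 to 0.116) and without 2, 6 and 8 together (adjusted p = 0.491). Kdm1a, the LSD1 demethylase of corepressor complexes, averaged -0.14 ± 0.11 in AcB61 (adjusted p = 0.0269) and -0.12 ± 0.09 in AcB55 (adjusted p = 0.1), the AcB61 call being lost without replicate 2, 7 or 8 (adjusted p = 0.0645 to 0.0801) and without 2, 6 and 8 together (adjusted p = 0.199). Kdm5b, which erases a mark of active promoters, averaged -0.12 ± 0.19 in AcB61 and -0.20 ± 0.10 in AcB55 (adjusted p = 0.0362), lost without any of AcB55 replicates 1, 2, 4, 5 or 6 (adjusted p = 0.0524 to 0.113), or 1 and 2 (adjusted p = 0.153) or 3 and 4 together (adjusted p = 0.0576). Its probes disagreed in AcB55, averaging -0.43 (adjusted p = 0.000178) and 0.02 (adjusted p = 0.909).

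The Polycomb and chromobox genes, which keep genes silent, held 1 change. The shares called were 0% in AcB61 (23.8% of all features) and 16.7% in AcB55 (20.7% of all features). Cbx7, a Polycomb reader of methylated histone H3, lay between -0.20 and 0.11 in AcB61 (median -0.09) and between -0.67 and -0.19 in AcB55 (median -0.38). It averaged -0.09 ± 0.10 in AcB61 (adjusted p = 0.28) and fell to a mean of -0.42 ± 0.19 in AcB55 (adjusted p = 8.55e-05), and both Cbx7 probes passed in AcB55. Cbx1, Cbx5, Eed, Ezh1 and the Polycomb inhibitor Ezhip had means between -0.03 and 0.05 in AcB61 and between -0.02 and 0.08 in AcB55. Of 5 bromodomain genes, readers of acetylated histones, Brd2 passed in AcB55 (mean -0.06 ± 0.19 in AcB61, -0.25 ± 0.22 in AcB55, adjusted p = 0.0278), a call lost without replicate 2, 3 or 6 (adjusted p = 0.0742 to 0.123) or 1 and 2 together (adjusted p = 0.143), and Brd1, Brd3, Brd7 and Brd8 passed in neither strain. Of the bromodomain genes, 0% were called in AcB61 and 20% in AcB55. The DNA methyltransferase Dnmt3a averaged 0.15 ± 0.13 in AcB61 and -0.03 ± 0.18 in AcB55, and its cofactor Dnmt3l -0.03 ± 0.13 and 0.09 ± 0.12, with no call. Some probes passed where the average did not. A Dnmt3a probe rose in AcB61 by 0.36 (adjusted p = 0.00249) and differed between the strains by 0.41 (adjusted p = 0.0335). A Brd3 probe fell in AcB55 to -0.42 (adjusted p = 0.000356) and differed by 0.43 (adjusted p = 0.00903). A Brd1 probe fell in AcB61 to -0.23 (adjusted p = 0.0159). Outside these groups, a Chd4 probe rose in AcB55 by 0.34 (adjusted p = 0.00713) and differed between the strains by -0.39 (adjusted p = 0.0366). The other probes of these genes did not pass. Among further cases, a probe of each of Chd1, Smarcc1 and Sin3a rose in AcB55, and an Ing4 probe rose in AcB61.

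**Figure D3:**
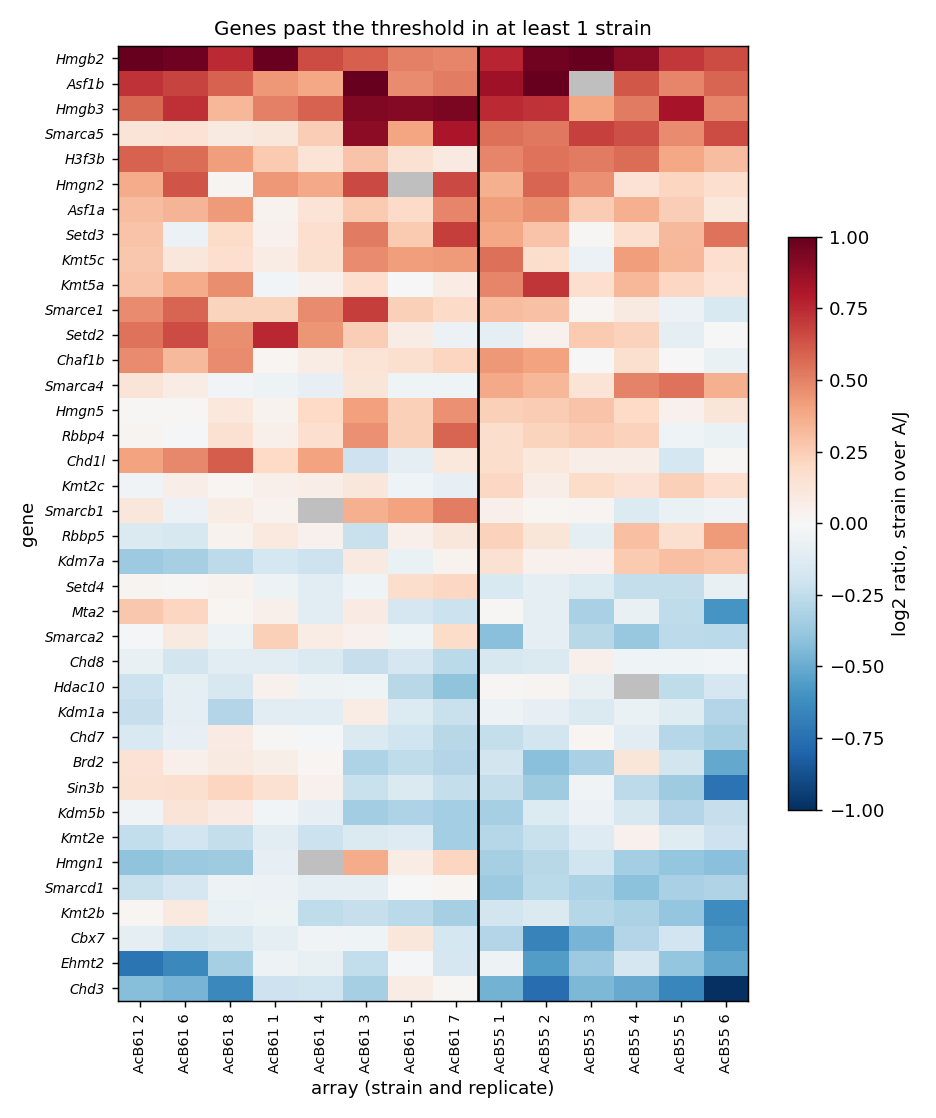
Log2 ratio over A/J (colour, scale capped at 1 in either direction) of the 38 genes past the threshold in at least 1 strain, by array. AcB61 arrays are on the left, ordered as replicates 2, 6 and 8, then 1 and 4, then 3, 5 and 7, and AcB55 on the right; grey marks no value. Chd1l is highest in replicates 8, 6 and 2 of AcB61 and Smarcb1 in replicates 7, 5 and 3.

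Compared directly, 6 of the 84 genes differed between the strains (7.14%, against 12.3% of all features), 4 higher and 2 lower in AcB61 than in AcB55. Over all features 5.29% were higher and 6.98% lower. The 6 genes were Smarca2, Smarcd1, Cbx7 and Sin3b, higher in AcB61, and Smarca4 and Kdm7a, lower in AcB61. The difference of the strain means (AcB61 minus AcB55) was 0.35 for Smarca2 (adjusted p = 0.0046), 0.25 for Smarcd1 (adjusted p = 0.0129), 0.33 for Cbx7 (adjusted p = 0.0142) and 0.34 for Sin3b (adjusted p = 0.0402). It was -0.36 for Smarca4 (adjusted p = 0.00436) and -0.34 for Kdm7a (adjusted p = 0.0145). The ranges of the strains did not overlap for Smarca2, Smarca4 and Smarcd1, 3 of 84 genes, against 2.67% of all features. The Sin3b difference was lost without replicate 2, 4, 5 or 6 of AcB55 or 1, 2, 4, 6 or 8 of AcB61 (adjusted p = 0.0589 to 0.11) and without AcB61 replicates 2, 6 and 8 (adjusted p = 0.131) or AcB55 replicates 1 and 2 (adjusted p = 0.0652), and the Smarcd1 difference without AcB55 replicates 3 and 4 (adjusted p = 0.0651). The counts of 4 and 2 became 8 and 3 with array weights, 14 and 4 without AcB61 replicates 3, 5 and 7, and 6 and 4 without AcB61 replicates 2, 6 and 8, and with probes kept apart 0 genes were lower in AcB61. Tested by probe, 1 of the 2 probes of Smarca4, Cbx7 and Sin3b and 2 of the 3 probes of Kdm7a passed for the difference.

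**Figure D4:**
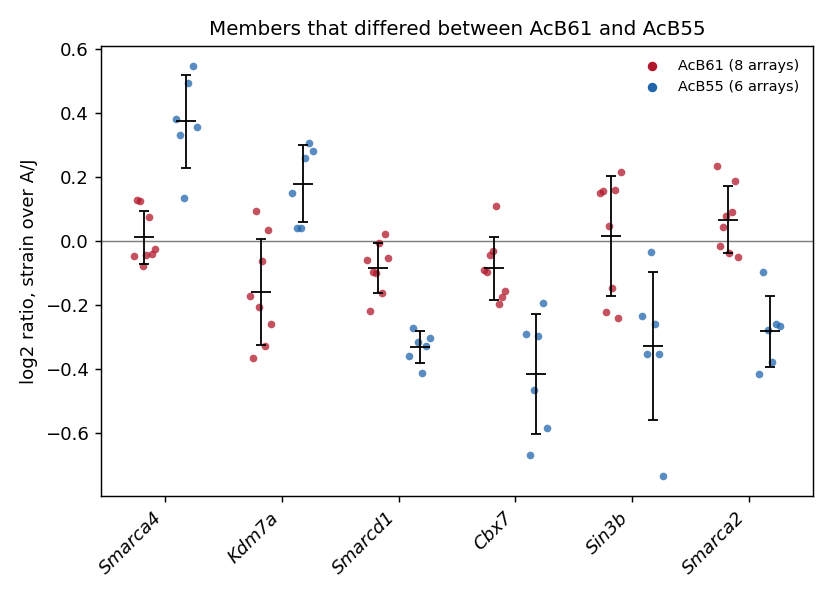
Log2 ratio over A/J (vertical axis) on each array of the 6 genes whose AcB61 and AcB55 means differed, AcB61 in red and AcB55 in blue, with the mean and 1 SD in black. Smarca4 and Smarca2 lie apart in opposite directions, by -0.36 and 0.35.

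On all AcB61 arrays together 15 of the 84 genes kept 1 sign, against 14.2% of all features, and on all AcB55 arrays 34 did, against 23.8%. The genes were spread over chromosomes. Chromosome 6 held 9 of them, of which 0 rose and 1 fell in AcB61 and 0 passed in AcB55. Chromosome 8 held 8, of which Hmgb2, Asf1b and Smarca5 rose in both comparisons and Sin3b fell in AcB55. The share of all features called was not computed by chromosome, so these counts are a description only.

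Related chromatin genes outside the naming rule were measured on the same arrays. Their calls are given for all arrays only, so whether they hold without some of the arrays is not shown. Of 21 other histone chaperones and histone mRNA factors, 6 rose and 0 fell in AcB61, and 9 rose and 3 fell in AcB55, with medians of 0.060 and 0.082. The shares called were 28.6% in AcB61 (23.8% of all features) and 57.1% in AcB55 (20.7% of all features). Dek, a chromatin architectural protein, averaged 0.75 ± 0.14 in AcB61 (adjusted p = 1.22e-07) and 0.93 ± 0.13 in AcB55 (adjusted p = 1.53e-08). Anp32b, an acidic histone-binding protein, averaged 0.74 ± 0.33 in AcB61 and 0.56 ± 0.13 in AcB55 and passed in both, while Anp32a averaged -0.07 ± 0.19 in AcB61 and fell in AcB55 to -0.40 ± 0.19 (adjusted p = 0.00173). Cenpa, the centromeric histone H3 variant, rose more in AcB61 (0.57 ± 0.14) than in AcB55 (0.21 ± 0.12), with a difference of 0.36 (adjusted p = 0.00649).

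Of 20 other SWI/SNF, INO80 and ISWI genes, 7 rose and 1 fell in AcB61 and 2 rose and 1 fell in AcB55. These were 40% and 15% called, against 23.8% and 20.7% of all features. Arid1a, a DNA-binding BAF subunit, fell in both, averaging -0.29 ± 0.09 in AcB61 (adjusted p = 0.000147) and -0.27 ± 0.10 in AcB55 (adjusted p = 0.000771). Hells, a remodeller of dividing cells needed for DNA methylation, averaged 0.25 ± 0.20 in AcB61 (adjusted p = 0.0086) and 0.50 ± 0.19 in AcB55 (adjusted p = 0.000101). Of 26 other Polycomb, arginine and lysine methyltransferase genes, 2 rose and 2 fell in AcB61 and 2 rose and 3 fell in AcB55. The shares called, 15.4% and 19.2%, were below those of all features. Ash2l, a subunit of the MLL complexes, averaged -0.13 ± 0.25 in AcB61 and -0.50 ± 0.20 in AcB55 (adjusted p = 0.000317), and Bmi1, a Polycomb ring-finger protein, -0.15 ± 0.15 (adjusted p = 0.0447) and -0.28 ± 0.13 (adjusted p = 0.00273).

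Among 19 genes of lysine acetyltransferases and their complexes, 1 rose and 0 fell in AcB61 and 4 rose and 1 fell in AcB55. The shares called were 5.26% in AcB61 (23.8% of all features) and 26.3% in AcB55 (20.7% of all features). The coactivator Crebbp averaged 0.03 ± 0.18 in AcB61 and 0.31 ± 0.10 in AcB55, and differed between the strains by -0.28 (adjusted p = 0.0362). Of 16 other corepressor, NuRD and sirtuin genes 4 rose and 1 fell in AcB61 and 1 rose and 2 fell in AcB55. These were 31.25% and 18.75% called, against 23.8% of all features in AcB61 and 20.7% in AcB55. Sap130, a subunit of the Sin3 complex, rose in AcB61 by 0.49 ± 0.36 (adjusted p = 0.00059) and averaged 0.20 ± 0.06 in AcB55 (adjusted p = 0.191). Brms1l, another Sin3 complex subunit, averaged -0.24 ± 0.15 in AcB61 and 0.21 ± 0.27 in AcB55, with a difference of -0.44 (adjusted p = 0.0119), and the difference for Arid4a was -0.37 (adjusted p = 0.042). Mbd3, a NuRD subunit, averaged 0.11 ± 0.19 in AcB61 and -0.29 ± 0.20 in AcB55, with a difference of 0.40 (adjusted p = 0.0159). Among 4 genes listed under reading and removal of DNA methylation, Tet3 fell in AcB61 to -0.19 ± 0.23 (adjusted p = 0.0392). Ctcf rose in AcB55 to 0.24 ± 0.10 (adjusted p = 0.00475). In each strain 25% of this list was called, near the 23.8% of all features in AcB61 and 20.7% in AcB55.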

How the data were processed

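Spleen RNA of AcB61 (8 arrays) and AcB55 (6 arrays) was hybridised with A/J spleen RNA on cDNA arrays with 2 channels. Per the labels' protocols, cDNA made from total or poly(A) RNA carried Cy3 or Cy5, slides were read on a ScanArray scanner, and QuantArray output went into GeneSpring. How ratios were normalized is not stated, because the protocol text is cut short. The deposited table holds log2 ratios per feature and array, with direction and base read as described in the report. Spot intensities were not analysed here, and the number of arrays limits the precision.

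Genes were named from the repository's platform annotation, probes with several symbols were left unnamed, and probes of a symbol were averaged on each array. Of the 84 genes, 33 had more than 1 measured probe, and 0 had probes called in opposite directions, although probe means had both signs for 9 genes in AcB61, 8 in AcB55 and 19 for the difference. R 4.3.3 with limma 3.58.1 (lmFit and eBayes, a mean per strain over all 14 arrays) tested 13045 features with at least 3 values in each strain, and two-sided p-values were adjusted by Benjamini and Hochberg over them, with a threshold of 0.05. The script was tested on simulated data. Python 3.11.15, pandas 2.3.3, numpy 2.4.6 and matplotlib 3.10.9 were used for summaries, motif searches and figures.

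The genes, their role groups and the other lists were chosen with earlier results of these data known. Any gene may be named with its strain means; ranges over arrays are given in each role group and comparison for up to 4 of the most changed genes that passed, and for histones, chaperones and HMG genes, and of each other list up to 3 genes per direction are named. Beyond this rule, the other genes that passed are given by mean and adjusted p. The alternatives were array centring, scaling, a filter on missing values, separate strain fits, array weights, robust regression, probes kept apart, and leaving out arrays. Leaving out AcB61 replicates 2, 6 and 8, or 3, 5 and 7, was chosen after seeing the data.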

Additional observations from a re-analysis of the deposited data

Results flagged for a closer look

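The difference between the strains passed the test for 6 genes. AcB61 minus AcB55 was 0.35 for Smarca2, 0.25 for Smarcd1, 0.33 for Cbx7, 0.34 for Sin3b, -0.36 for Smarca4 and -0.34 for Kdm7a.

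A single array lay far from the others of its strain in 5 of 168 groups of arrays (2.98%). No chance rate is given for this rule, so the share is a description only. On AcB55 replicate 6, Chd3 read -1.36 (next lowest -0.76), H1f8 -0.36 (next lowest -0.09) and Ing4 -0.30 (next lowest -0.02). Chd4 read 0.29 on AcB61 replicate 5, and Setdb1 read 0.21 on AcB55 replicate 1. AcB55 replicate 6 held 3 of the 5.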

How the results depend on the processing

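Over 25 alternatives, 22 of 57 calls of single genes were kept under every one that gave a value and 35 were lost under at least 1. With probes kept apart 17 were lost, and 6 of these were lost under that alternative alone: Asf1a in AcB61 and in AcB55, Kmt2e in AcB61, and the strain differences of Smarca4, Kdm7a and Cbx7. Leaving that alternative aside, 0 reversed and 43 results that had not passed did so under at least 1. Calls kept throughout numbered 8 of 23 in AcB61, 13 of 28 in AcB55 and 1 of 6 between the strains, the last being Smarca2. Leaving out 1 array gave 13 to 18 genes higher (16 in all arrays) and 4 to 8 lower (7) in AcB61, the lowest being 4 without AcB61 replicate 8. In AcB55 it gave 10 to 15 higher (14) and 9 to 16 lower (14), with 9 lower without AcB55 replicate 5 or 6, and between the strains 3 to 6 higher (4) and 2 to 3 lower (2) in AcB61. Genes lower in AcB61 over A/J numbered 4 with each strain fitted alone and 4 with probes kept apart. Without AcB55 replicates 1 and 2 together, 8 genes were higher and 8 lower in AcB55. Genes higher in AcB61 than in AcB55 numbered 8 with array weights and 14 without AcB61 replicates 3, 5 and 7. Genes lower in AcB61 than in AcB55 numbered 4 with robust regression, 4 without AcB61 replicates 2, 6 and 8, 4 without replicates 3, 5 and 7, and 0 with probes kept apart by limma, where 4 genes had every probe at an unadjusted p under 0.05. The cause of these changes was not tested. The separate strain fit was not run for the difference between strains. No paired analysis was possible because the labels carry no replicate numbers. Spot intensity was not used here, so what dim signal limits is unknown.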
